A study of Mus musculus with 12 samples.

Results

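The 9 genes described here move phosphate across the wall of the kidney tubule or set how much of it is moved. They are the sodium-phosphate cotransporter genes Slc34a1, Slc34a3, Slc20a1 and Slc20a2, the brush border scaffold gene Slc9a3r1, the co-receptor gene Kl, and the receptor genes Fgfr1, Pth1r and Vdr. They were picked out of the table by gene symbol, from a list made with earlier results of these data known, and are 9 of the 37681 mouse genes in the deposited table. TRACK mice carry γ-HIF1αM3, a mutated and constitutively active HIF1α whose expression is driven in the renal proximal tubule by a γ-glutamyl transferase (GGT) promoter. RNAseq was performed on a thin outer slice of kidney cortex from 3 male C57BL/6 mice with the transgene (TG+; mice 43-29, 43-49 and 43-75) and from 3 male littermates without it (TG-; mice 43-26, 43-50 and 43-76). All 6 mice were untreated and 18 months old, and each of the 2 kidneys of a mouse gave 1 library. The promoter places the transgene in a single cell type of a mixed tissue, so a slice is not pure proximal tubule. The authors describe distorted tubules, cysts and early tumor in TRACK kidneys, but not for the slices sequenced here.

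Most phosphate that the glomerulus filters is taken back in the proximal tubule. NPT2a and NPT2c, encoded by Slc34a1 and Slc34a3, carry phosphate with sodium across the brush border, while PiT-1 and PiT-2, encoded by Slc20a1 and Slc20a2, are found in nearly all cells, with PiT-2 also in the brush border. The scaffold protein NHERF1 (Slc9a3r1) holds NPT2a in the membrane. Parathyroid hormone, acting on PTH1R, and the bone hormone FGF23, acting on FGF receptors joined to Klotho, both lead to removal of the cotransporters and so to loss of phosphate in urine. Klotho is made mainly in distal tubules and at lower levels in proximal tubules, and the vitamin D receptor (Vdr) binds calcitriol, the active form of vitamin D, whose synthesis in the proximal tubule FGF23 represses.

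HIF1α binds DNA as a dimer with HIF1β at hypoxia response elements, whose core is read here as ACGTG or GCGTG on either strand. RefSeq promoter windows (GRCm38.p6, from 250 bases before to 50 bases after a start site) were found for 7 of the 9 genes, with entries for 10 start sites. Windows for Slc20a2 and Fgfr1 were not analysed here. The windows of Slc34a1 and Slc20a1 are printed because these genes had the largest differences between the genotypes, in opposite directions. Capitals mark the core motif.
Slc34a1, chr13:55399398-55399697, plus strand: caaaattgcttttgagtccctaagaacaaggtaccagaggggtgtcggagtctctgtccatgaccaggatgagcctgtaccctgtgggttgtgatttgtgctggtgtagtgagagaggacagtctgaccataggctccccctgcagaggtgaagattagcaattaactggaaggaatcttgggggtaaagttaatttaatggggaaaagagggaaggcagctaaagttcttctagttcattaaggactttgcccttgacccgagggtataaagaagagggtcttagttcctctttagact
Slc20a1, chr2:129198523-129198822, plus strand, the first of its 2 start sites: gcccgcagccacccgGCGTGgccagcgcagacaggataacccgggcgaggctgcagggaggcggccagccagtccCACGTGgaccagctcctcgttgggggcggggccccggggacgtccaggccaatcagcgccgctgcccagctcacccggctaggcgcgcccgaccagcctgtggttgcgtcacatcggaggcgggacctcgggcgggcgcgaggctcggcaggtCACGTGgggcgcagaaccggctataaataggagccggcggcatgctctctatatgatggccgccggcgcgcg

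The Slc34a1 window held 0 matches and had a GC content of 46.7%. The Slc20a1 window held 5 matches with a GC content of 73.0%. Counting the first base of each match from the start site, 1 GCGTG lay at -235, and the palindrome CACGTG, which gives a match on each strand, lay at -175 and again at -22. The other Slc20a1 start site, Slc9a3r1, the third Pth1r start site and Vdr had 1 match each, and Kl and Slc34a3 had 0. In all, 5 of the 10 windows held a match, against 43.8% of the 32851 RefSeq promoter windows. A match of this length is a description of the letters and not a binding site.

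The libraries held 21888584 to 27819034 reads on genes in TG+ and 24963346 to 33704850 in TG-. After the kidneys of a mouse were summed, the totals were 48052131 to 53275152 reads for TG+ mice and 50570271 to 60506785 for TG- mice. The least covered of the 9 genes, Slc20a1, still had 1815 reads in the mouse with fewest. Levels are CPM, the reads of a gene relative to the TMM-scaled total of its library, and are given as mean ± SD of 3 mice. Endogenous Hif1a (95.7 ± 11.8 CPM in TG+, 104 ± 2.17 in TG-) overlapped between the groups, and it is not stated whether transgene reads fall on it. The HIF1α target Car9 stood at 148 ± 23.0 CPM in TG+ and 14.7 ± 2.95 in TG-, with the groups apart in the direction of the labels.

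In TG+ kidney cortex the gene for the main phosphate cotransporter, Slc34a1, fell to 0.590 of its TG- level, and Slc20a1 rose 1.93-fold. Pth1r (0.760 of TG-), Slc9a3r1 (0.780) and Kl (0.864) fell by less. Slc34a3, Slc20a2, Fgfr1 and Vdr did not pass the test. All 9 genes had enough reads to be tested. At the threshold of the study, a fold change above 2 or below 0.5 with an adjusted p under 0.01, 0 of the 9 genes were called higher and 0 lower, against 3.77% and 0.211% (3.98% in either direction) of the 19399 genes tested. At an adjusted p under 0.05 and any fold, 1 gene was higher and 4 were lower, against 15.4% and 10.9% of all genes (26.2% in either direction). The adjusted p comes from edgeR's quasi-likelihood test after Benjamini-Hochberg correction across all genes tested, and 6 of the 9 had an unadjusted p under 0.05 in that test, as did 7576 of the 19399 genes. DESeq2 also called 0 past the threshold of the study in either direction. The mice of the genotypes did not overlap for 6 of the 9 genes, against 44.2% of all genes tested. Their median was -0.21 on the log2 scale, beside 0.01 for all genes tested. Scaling by library size alone raised the median of all genes from 0.0124 to 0.132, and then 2 of the 9 genes were called higher and 3 lower. The exact permutation test on single genes has 20 assignments of 3 against 3 mice and cannot give a 2-sided p below 0.1.

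**Figure D1:**
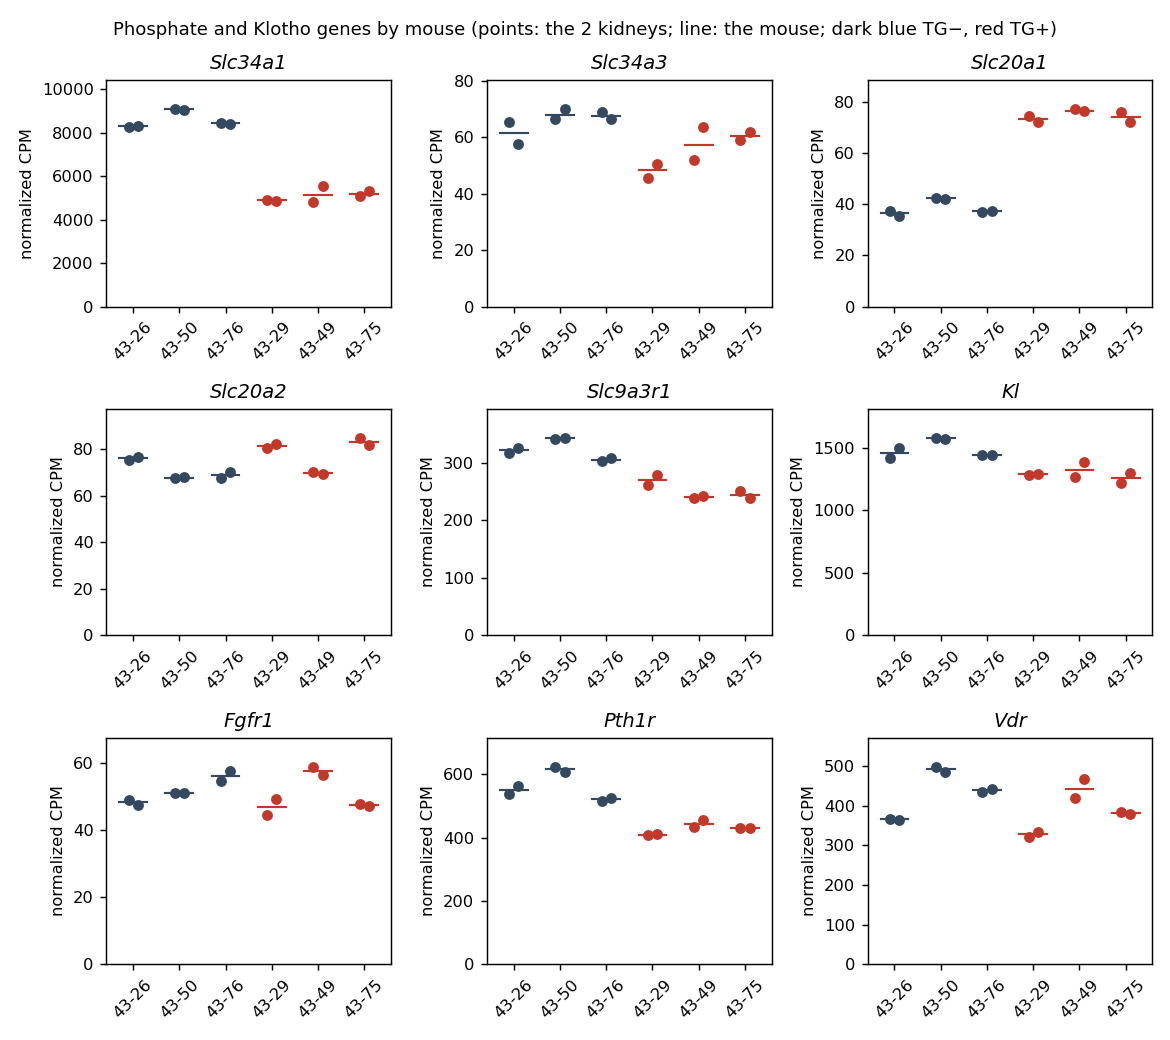
Normalized CPM of the 9 phosphate and Klotho genes in each mouse, with the 2 kidneys as points and the mouse as a line (dark blue TG-, red TG+; each vertical axis starts at 0). Slc34a1 lies at 4883 to 5193 CPM in TG+ mice and 8298 to 9069 in TG- mice, Slc20a1 separates in the opposite direction, and Vdr and Fgfr1 overlap.

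Slc34a1 (ENSMUSG00000021490, chromosome 13 from 55398187 to 55415592, GRCm38) stood at 4883, 5148 and 5193 CPM in the TG+ mice 43-29, 43-49 and 43-75. It stood at 8298, 9069 and 8430 CPM in the TG- mice 43-26, 43-50 and 43-76. Every TG+ mouse was below every TG- mouse, and the same held for single kidneys, which ranged from 4815 to 5540 CPM in TG+ and from 8267 to 9077 in TG-. The log2 fold change was -0.76 (SE, standard error, 0.06; 95% confidence interval -0.90 to -0.62, adjusted p = 1.58e-04 in edgeR's test), and the exact permutation test gave the smallest p it can, 0.1. The 2 kidneys of a mouse differed by a median of 0.894%, and by 15.1% in 43-49, where they gave 4815 and 5540 CPM. Slc34a1 overlaps Pfn3 on the opposite strand, which stood at 424 CPM in TG+ and 728 in TG- (log2 fold change -0.78). Use of strand in the counting is not given in the sources used here, so reads of these 2 genes cannot be told apart.

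Slc34a3 (chromosome 2 from 25228898 to 25234364), which encodes the second brush border cotransporter, had values far lower than Slc34a1. The TG+ mice stood at 48.3, 57.4 and 60.4 CPM, and the TG- mice at 61.5, 68.0 and 67.7. The groups of mice lay side by side without overlap, but the kidneys overlapped, from 45.4 to 63.8 CPM in TG+ and from 57.5 to 69.9 in TG-. The log2 fold change of -0.25 (SE 0.09, interval -0.45 to -0.04) did not pass at any fold (adjusted p = 0.0762 in edgeR's test, permutation p = 0.1). The 2 kidneys of 43-49 differed by 23.0% for this gene, and the median gap within a mouse was 8.47%. DESeq2 gave a similar change, -0.26, with an adjusted p of 0.0390.

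Slc20a1 (ENSMUSG00000027397, chromosome 2 from 129198764 to 129211616) was the gene that rose. Its level was 73.1, 76.4 and 74.0 CPM in TG+ and 36.4, 42.2 and 37.1 CPM in TG-, with the mice ordered as for Slc34a1. The lowest TG+ mouse was well above the highest TG- mouse, and kidneys of a mouse differed by a median of 2.25%. The log2 fold change was 0.95 (SE 0.07, interval 0.79 to 1.11, adjusted p = 1.01e-04 in edgeR's test, permutation p = 0.1). It fell short of the 2-fold limit, and passed it without TG- mouse 43-50 (1.02) and with library size alone (1.07). The opposite-strand gene 9830144P21Rik overlaps it and stood at 14.0 CPM in TG+ and 7.63 in TG-. Slc20a2 (chromosome 8 from 22476788 to 22569612) stood at 81.5, 69.7 and 83.3 CPM in TG+ and 76.2, 67.8 and 68.9 in TG-. These groups overlapped, with a log2 fold change of 0.14 (SE 0.08, interval -0.05 to 0.33, adjusted p = 0.250 in edgeR's test). The interval leaves room for a rise of up to 1.26-fold. Slc20a2 overlaps Smim19 on the other strand (24.8 CPM in TG+, 27.2 in TG-).

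To compare genes with each other, CPM was divided by the length of the longest GENCODE transcript in kb. On this scale, in TG- cortex, Slc34a1 had 2159 ± 104 CPM per kb. Slc34a3 had 30.1 ± 1.67, Slc20a2 19.9 ± 1.28 and Slc20a1 11.6 ± 0.948 CPM per kb. In TG+ cortex Slc34a1 had 1274 ± 42.1 CPM per kb, and Slc34a3 (25.4 ± 2.89), Slc20a1 (22.5 ± 0.524) and Slc20a2 (21.9 ± 2.07) overlapped between neighbours. The cotransporter Slc34a2 (NPT2b), best known from intestine and lung, was the fifth, and its own change is given with the other genes of the pathway. The sum of the 5 cotransporters was 1347 ± 45.02 CPM per kb in TG+ and 2221 ± 105 in TG-, with no overlap. Slc34a1 made up 94.6% ± 0.108 of that sum in TG+ and 97.2% ± 0.0784 in TG-. The share of Slc20a1 was 1.67% ± 0.0453 in TG+ and 0.523% ± 0.0176 in TG-. The remaining shares were also higher in TG+, at 1.88% against 1.36% for Slc34a3, 1.63% against 0.898% for Slc20a2 and 0.204% against 0.0190% for Slc34a2. All of these shares separated the genotypes (exact permutation p = 0.1, the smallest possible), and shares of 1 sum depend on each other. Per length, the ratio of Slc34a1 to Slc20a1 was 56.7 ± 1.505 in TG+ and 186 ± 6.00 in TG-, and the ratio of Slc34a1 to Slc34a3 was 50.6 ± 4.32 and 71.8 ± 3.04. The ratio of Slc20a2 to Slc20a1 was 0.977 ± 0.112 in TG+ and 1.72 ± 0.226 in TG-. The size of these shares and ratios depends on the length used, and their SDs give the spread of the mice alone. With merged exon lengths, Slc20a1 had 13.4 CPM per kb in TG+ and 6.91 in TG-, beside 1085 and 1839 for Slc34a1. In TG+ cortex Slc34a3 (23.5) then stood above Slc20a1.

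**Figure D2:**
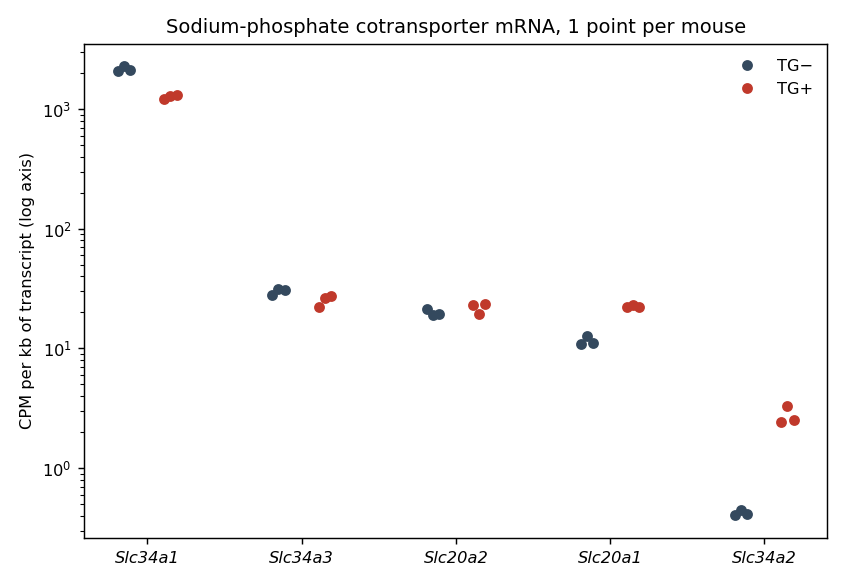
CPM per kb of the longest transcript (log axis) for the 5 sodium-phosphate cotransporter genes, 1 point per mouse, dark blue for TG- and red for TG+. Slc34a1 is the highest gene in all 6 mice and lower in TG+, Slc20a1 and Slc34a2 are higher in TG+, and Slc20a2 overlaps.

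Slc9a3r1 (ENSMUSG00000020733, chromosome 11 from 115163341 to 115181181) fell. The TG+ mice had 270.9, 240.1 and 245.0 CPM, and the TG- mice had 321.7, 342.9 and 305.1, so the groups did not overlap. The log2 fold change was -0.36 (SE 0.07, interval -0.52 to -0.20, adjusted p = 0.00836 in edgeR's test, permutation p = 0.1). On the per-length scale the ratio of Slc34a1 to this scaffold was 9.77 ± 0.921 in TG+ and 12.9 ± 0.449 in TG-, and it separated the genotypes (permutation p = 0.1), so the cotransporter mRNA was lower also relative to its scaffold. Of the 4 other scaffold genes listed, Pdzd3 (NHERF4) fell from 148 ± 9.40 to 106 ± 6.38 CPM and Slc9a3r2 (NHERF2) rose from 46.5 ± 1.27 to 65.7 ± 8.86 CPM. Their log2 fold changes were -0.49 (adjusted p = 0.00241) and 0.50 (adjusted p = 0.00699) in edgeR's test. Pdzk1 (NHERF3), at 1051 ± 48.3 CPM in TG+ and 1176 ± 151 in TG-, did not pass (-0.16, adjusted p = 0.242 in edgeR's test), nor did Ezr, which links such scaffolds to actin (525 ± 39.9 and 499 ± 26.9 CPM).

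Kl (ENSMUSG00000058488, chromosome 5 from 150952607 to 150993817) had 1286, 1320 and 1258 CPM in the TG+ mice and 1455, 1574 and 1444 CPM in the TG- mice. All TG+ mice were lower than all TG- mice, and single kidneys did not overlap either (1220 to 1389 and 1414 to 1576 CPM). The difference was small, with a log2 fold change of -0.21 (SE 0.06, interval -0.34 to -0.08, adjusted p = 0.0302 in edgeR's test). The call was lost when any mouse other than 43-49 was left out (log2 fold change -0.24 to -0.17, adjusted p of up to 0.0900). With library size alone the difference was -0.09 (adjusted p = 0.228). The genes for ADAM10, ADAM17 and BACE1, proteases that can release Klotho from the membrane, gave 0 calls in either direction at an adjusted p under 0.05 (edgeR's test; 1 had an unadjusted p under 0.05, and the log2 fold changes were -0.14 to 0.12).

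Fgfr1 (chromosome 8 from 25513654 to 25575718), which encodes the FGF receptor that forms the main FGF23 receptor with Klotho, had 47.0, 57.6 and 47.4 CPM in TG+ and 48.3, 51.1 and 56.1 in TG-. The groups overlapped fully, with a log2 fold change of -0.03 (SE 0.09, interval -0.25 to 0.18, adjusted p = 0.834 in edgeR's test) whose sign turned with library size alone (0.09). Per length, Kl exceeded Fgfr1 by 22.1 ± 2.03 times in TG+ and 25.0 ± 2.38 times in TG-, a ratio that overlapped between the groups (permutation p = 0.3). Fgfr2 and Fgfr3 had intervals of -0.18 to 0.18 and -0.25 to 0.25 on the log2 scale. Fgfr4 fell from 55.1 ± 1.31 to 43.7 ± 3.81 CPM (log2 fold change -0.33, adjusted p = 0.0122 in edgeR's test). It is named after its values were seen. Gm16159, on the opposite strand of Fgfr1, had 1.21 and 1.34 CPM. The ligand gene Fgf23, a bone product, had 0 reads in all 12 libraries, where 3 reads would be 0.137 CPM in the shallowest and 0.0890 in the deepest. Klb, the co-receptor for other endocrine FGFs, had at most 5 reads in a library and was not tested.

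Pth1r (ENSMUSG00000032492, chromosome 9 from 110722085 to 110747145), the receptor gene through which parathyroid hormone lowers phosphate uptake, had 409, 444 and 429 CPM in TG+ mice and 551, 617 and 521 CPM in TG- mice. No TG+ mouse reached a TG- mouse. The log2 fold change was -0.40 (SE 0.07, interval -0.57 to -0.23, adjusted p = 0.00708 in edgeR's test, permutation p = 0.1). Of 6 genes that act below this receptor, 0 rose and 2 fell at an adjusted p under 0.05 (median log2 fold change -0.09), against 15.4% and 10.9% of all genes tested. The 2 were Plcb1, a phospholipase (58.1 ± 1.40 to 48.4 ± 2.97 CPM, -0.26), and Prkaca, the catalytic subunit of protein kinase A (68.3 ± 1.82 to 61.1 ± 1.59 CPM, -0.16), both named after their values were seen. Myl3, on the opposite strand of Pth1r, had 0.0661 and 0.0393 CPM. Pth had at most 1 read in a library and was not tested.

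Vdr (chromosome 15 from 97854425 to 97910630) had 328, 442 and 382 CPM in TG+ mice and 366, 493 and 438 in TG- mice. The groups overlapped, with a log2 fold change of -0.17 (SE 0.13, interval -0.48 to 0.14, adjusted p = 0.386 in edgeR's test, permutation p = 0.5). The interval reaches from 0.717 to 1.10 times the TG- level. Rxra, the partner of the vitamin D receptor on DNA, fell from 259 ± 13.2 to 191 ± 0.938 CPM (log2 fold change -0.44, adjusted p = 0.00139 in edgeR's test). Cyp27b1, which makes calcitriol, had 29.4, 5.15 and 14.6 CPM in TG+ and 26.9, 12.1 and 8.37 in TG-. Cyp24a1, which degrades it, had 190, 440 and 572 CPM in TG+ and 318, 274 and 268 in TG-. Neither passed (log2 fold change 0.05 with SE 0.61 and 0.48 with SE 0.33, adjusted p = 0.960 and 0.328 in edgeR's test). For both enzymes the spread between mice was wide, and the intervals of the log2 fold change reached from -1.36 to 1.46 and from -0.29 to 1.25. Gc, the plasma vitamin D binding protein, had 71.8, 119 and 96.4 CPM in TG+ and 13.0, 15.5 and 11.9 in TG-. It rose with a log2 fold change of 2.83 (SE 0.19, adjusted p = 7.81e-05 in edgeR's test).

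On the per-length scale the order of the 9 genes in TG- cortex was Slc34a1, Kl (256 ± 12.4 CPM per kb), Pth1r (244 ± 21.2), Slc9a3r1 (168 ± 9.83), Vdr (99.0 ± 14.6), Slc34a3, Slc20a2, Slc20a1 and Fgfr1 (10.3 ± 0.784). The neighbours Kl and Pth1r overlapped, as did Slc20a1 and Fgfr1. In TG+ cortex Kl (221 ± 5.33) and Pth1r (185 ± 7.56) no longer overlapped, Slc20a1 stood apart from Fgfr1 (10.1 ± 1.18), and it was level with Slc20a2 and Slc34a3. With merged exon lengths in place of the longest transcript, the place of Kl changed, with 160 CPM per kb in TG- beside 192 for Pth1r and 168 for Slc9a3r1. In TG+ cortex Kl (138) and Pth1r (146) then overlapped, so which of these 2 genes is higher, and in which genotype they are apart, depends on the length used. In TG+ cortex, Slc20a1 (13.4 CPM per kb) then remained near Slc20a2 (12.6) but stood below Slc34a3 (23.5).

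**Figure D3:**
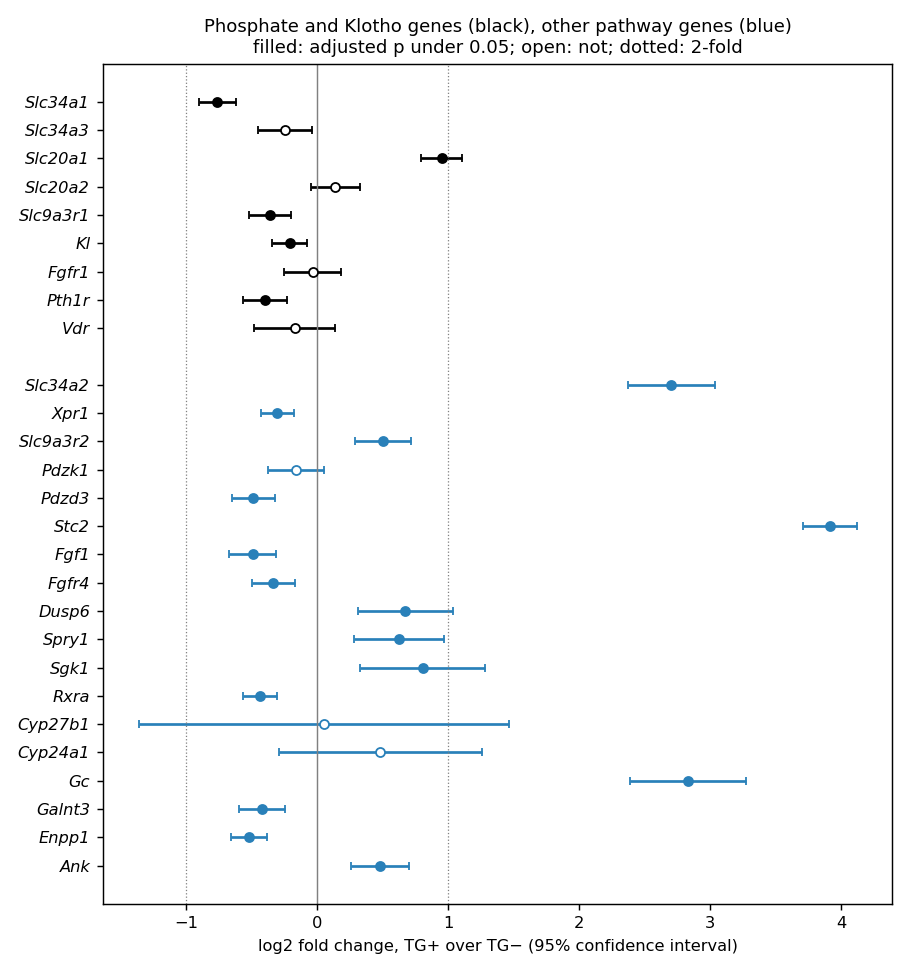
Log2 fold change of TG+ over TG- with its 95% confidence interval (3 mice against 3) for the 9 phosphate and Klotho genes in black and for 18 other pathway genes in blue. Filled points have an adjusted p under 0.05 and dotted lines mark a 2-fold change, which Stc2, Gc and Slc34a2 exceed and Slc20a1 at 0.95 does not reach.

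The pathway lists held 54 further genes, of which 47 had enough reads to be tested. At the threshold of the study 3 of the 47 were higher (Stc2, Gc and Slc34a2) and 0 lower, against 3.77% and 0.211% of all genes tested, and DESeq2 counted 3 and 0 for all 63 listed genes as well. At an adjusted p under 0.05, 8 of the 47 were higher and 9 lower, against 15.4% and 10.9% of all genes tested, and 22 of the 47 had an unadjusted p under 0.05, beside 7576 of the 19399. Their median log2 fold change was 0.05. Together with the 9 genes above the split was 9 higher and 13 lower, which became 15 higher and 9 lower with library size alone. Slc34a2 stood at 10.2, 13.7 and 10.6 CPM in TG+ and 1.68, 1.87 and 1.74 in TG-, a rise of 2.70 on the log2 scale (SE 0.14, adjusted p = 2.20e-05 in edgeR's test). It remained the least abundant of the cotransporters in every mouse. Xpr1, which encodes the phosphate exporter, fell from 250 ± 10.2 to 202 ± 4.83 CPM (-0.30, adjusted p = 0.00597 in edgeR's test), and is named after its values were seen. The largest difference of the pathway was that of Stc2, which encodes the secreted glycoprotein stanniocalcin 2, with 39.8, 42.8 and 44.8 CPM in TG+ and 3.10, 2.63 and 2.74 in TG- (log2 fold change 3.91, SE 0.09, adjusted p = 1.13e-06 in edgeR's test). Fgf1, a growth factor that binds all FGF receptors, fell from 381 ± 31.9 to 271 ± 17.4 CPM (-0.49).

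Of 8 genes that act below FGF receptors, 3 rose and 0 fell at an adjusted p under 0.05, against 15.4% and 10.9% of all genes tested. The median log2 fold change of the 8 was 0.46. Sgk1, a kinase that acts below FGF23 in the proximal tubule and also answers to corticosteroids, had 105, 124 and 65.0 CPM in TG+ and 59.2, 57.6 and 51.2 in TG-. The 3 TG+ mice were all higher but far apart, and the log2 fold change was 0.80 (SE 0.21, adjusted p = 0.0248 in edgeR's test). Dusp6, a phosphatase that turns off ERK, had 84.3, 76.7 and 118 CPM in TG+ and 64.0, 57.6 and 53.4 in TG- (0.67, adjusted p = 0.0168 in edgeR's test). Spry1, another feedback inhibitor of receptor tyrosine kinases, rose from 20.4 ± 3.23 to 31.4 ± 5.33 CPM (0.62). Egr1, an early response gene used as a readout of FGF23 and named after its values were seen, had 21.0, 8.64 and 56.4 CPM in TG+ and 8.19, 5.92 and 27.5 in TG-, and did not pass (adjusted p = 0.339 in edgeR's test). All of these genes answer to many other receptors. Among the 5 tested genes of FGF23 processing and mineralisation, 1 rose and 2 fell at the same limit. Galnt3, whose product protects FGF23 from cleavage in bone, fell from 109 ± 7.52 to 81.1 ± 5.98 CPM (-0.42), and Enpp1, which forms pyrophosphate, fell from 64.1 ± 2.94 to 44.7 ± 2.02 CPM (-0.52). Ank, a gene of pyrophosphate export, rose from 8.26 ± 0.225 to 11.5 ± 1.31 CPM (0.48). The 7 calcium transport genes of the distal tubule gave 0 calls in either direction (edgeR's test; 2 had an unadjusted p under 0.05), with a median of 0.03.

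In bulk cortex, fewer cells of a type and less RNA per cell cannot be told apart, so the 9 genes were also set beside markers of the segments. Of 20 proximal tubule markers, 0 rose and 10 fell at an adjusted p under 0.05, against 15.4% and 10.9% of all genes tested. Of these markers 18 lay below 0, and the median log2 fold change was -0.30. Their summed level was 17771 to 18829 CPM in TG+ mice and 23068 to 25817 in TG- mice, and the most abundant over all mice, the P450 gene Cyp4b1, fell from 4300 ± 317 to 2053 ± 151 CPM. Of 9 markers of the distal convoluted and connecting tubule, 0 were called (edgeR's test; 0 had an unadjusted p under 0.05), with a median of 0.02 and sums of 2118 to 2636 CPM in TG+ and 2359 to 2440 in TG-. Slc12a3, the most abundant, had 790 ± 18.7 and 820 ± 78.4 CPM. The 7 markers of the thick ascending limb had a median of 0.01 and sums of 2690 to 3709 and 2924 to 3005 CPM, led by Umod (2019 ± 467 and 1936 ± 78.3 CPM). The 8 collecting duct markers had a median of 0.09 (1 lower) and sums of 505 to 527 and 454 to 510 CPM, led by Aqp2 (126 ± 11.3 and 100 ± 19.7 CPM).

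Markers of other cells were higher in TG+, counted at an adjusted p under 0.05, where 15.4% of all genes tested were higher. All 8 endothelial markers rose (median 0.71; sums 670 to 719 CPM in TG+ and 383 to 499 in TG-; Eng most abundant, 161 ± 12.8 and 118 ± 13.9). Of 12 immune markers 10 rose (median 0.90; sums 459 to 512 and 240 to 323; Cd74, 329 ± 22.9 and 202 ± 31.9). Of 8 stromal markers 5 rose (median 0.69; sums 249 to 334 and 164 to 197; Pdgfrb, 73.3 ± 11.7 and 43.9 ± 8.93). Of 6 podocyte markers 2 rose (median 0.27; sums 558 to 650 and 427 to 513; Podxl, 346 ± 32.6 and 268 ± 19.2). Of 9 tubule injury markers 6 rose (median 1.27; sums 999 to 1181 and 814 to 1024), while the most abundant, Spp1, had 650 ± 43.9 and 597 ± 66.1 CPM. Every listed marker had enough reads to be tested, so none stood at 0. The part of these cell types in the differences of the 9 genes was not tested.

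Relative to the summed proximal tubule markers, on the log2 scale, Slc34a1 was lower in TG+ (difference -0.35, -1.84 ± 0.04 in TG+ and -1.49 ± 0.02 in TG-, exact permutation p = 0.1). Its own log2 fold change of -0.76 lay within the spread of the single markers, from -1.09 (Slc22a6) to 0.52 (Pck1). Relative to the same sum, Slc20a1 was higher by 1.36, and Slc20a2 (0.55), Fgfr1 (0.37) and Kl (0.20) were higher as well, each with no overlap between the groups (exact permutation p = 0.1). Slc9a3r1 and Pth1r, which fell on the plain scale, differed by 0.05 and 0.02 here and overlapped (exact permutation p = 0.7 and 1.0). Slc34a3 differed by 0.16 and Vdr by 0.24 (exact permutation p = 0.2 and 0.3). Set against the median of these markers in place of their sum, the difference was -0.22 for Slc34a1, 1.49 for Slc20a1 and 0.33 for Kl. On that scale Pth1r (0.15), Slc34a3 (0.29) and Vdr (0.37) were also higher without overlap (exact permutation p = 0.1), while Slc9a3r1 (0.18) still overlapped (exact permutation p = 0.2). Relative to the distal convoluted and connecting tubule markers, Slc34a1 differed by -0.74, Pth1r by -0.37 and Slc34a3 by -0.23, and Slc20a1 by 0.97, each with an exact permutation p of 0.1. Kl differed by -0.19 and overlapped (exact permutation p = 0.2). With the median of the distal markers in place of their sum, Slc34a1 (-0.52) and Slc20a1 (1.19) still separated the genotypes (exact permutation p = 0.1). Pth1r (-0.16), Slc34a3 (-0.018) and Kl (0.026) then overlapped (exact permutation p = 0.6, 0.9 and 1.0), so the separation of Pth1r and Slc34a3 was lost and the sign of Kl turned with the way the markers were summarised.

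**Figure D4:**
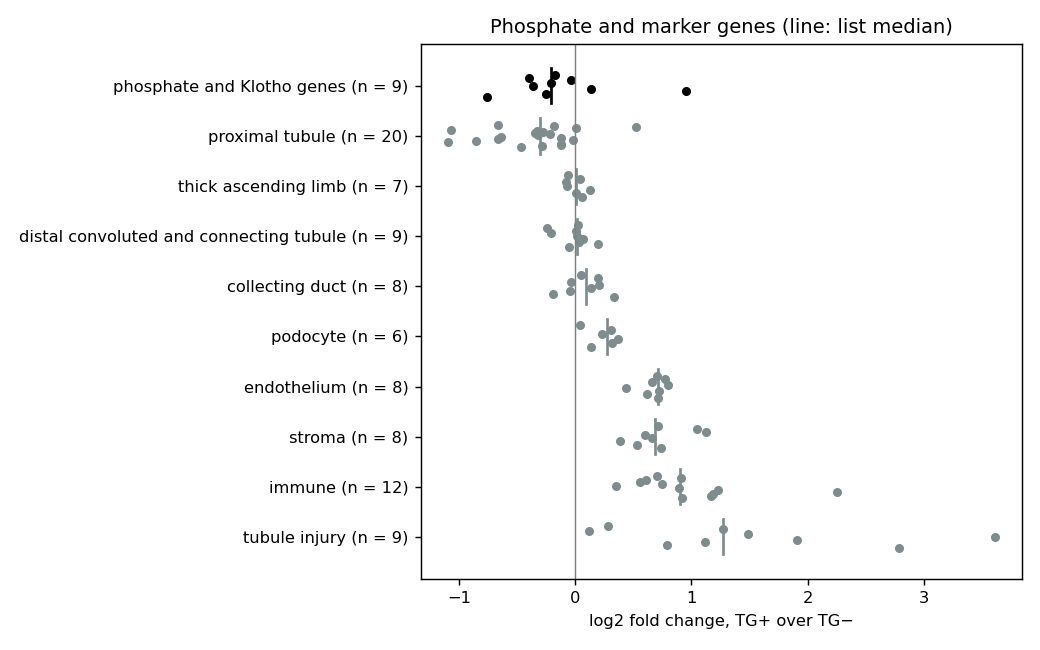
Log2 fold change of TG+ over TG- for the 9 phosphate and Klotho genes (black) and the genes of 9 marker lists (grey), 1 point per gene, with a vertical line at the median of each list. The median lies at -0.21 for the phosphate and Klotho genes, at -0.30 for the proximal tubule markers, near 0 for the distal segments and above 0 for podocytes, endothelium, stroma, immune cells and tubule injury.

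Across the 12 libraries and 10182 genes with a mean of at least 10 CPM, the genes whose levels followed each of the 9 most closely were sought by Pearson's r of log2(CPM + 1). The libraries share genotype, mouse and depth, so these values are descriptions. Slc34a1 ran closest to Upb1 (0.997), Slc5a11 (0.996) and Prkcz (0.995), and Slc20a1 to the glycolytic regulator Pfkfb3 (0.997; log2 fold change 2.35), the mitochondrial PEPCK gene Pck2 (0.993) and Gm13464 (0.992). Kl ran with Fxyd2 (0.981), Miox (0.973) and Prkaa2 (0.965), and Pth1r with Cpped1 (0.987), Miox (0.986) and 4931406C07Rik (0.985). Slc9a3r1 ran with Wbp2, Ttc36 and Ldhd (each 0.983). Miox, an enzyme of inositol breakdown and 1 of the 20 proximal tubule markers, was thus on the lists of both Kl and Pth1r. For the 4 genes that did not pass the test, the closest gene had a lower value than for the genes that passed. Further down the lists interleaved, with 0.973 for the second gene of both Slc20a2 and Kl. Slc20a2 ran with Ifngr2 (0.974), D10Wsu102e (0.973) and Cpn1 (0.958), and Fgfr1 with Zfp629 (0.973), Srgap3 (0.931) and Gtf3c4 (0.912). Vdr ran with Fitm1 (0.970), Mertk (0.955) and Tnrc6b (0.955), and Slc34a3 with Dtd2 (0.954), Slc43a2 (0.944) and Lrrcc1 (0.944).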

How the data were processed

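The authors extracted RNA from a thin slice of kidney cortex with RNeasy columns, prepared TruSeq libraries and sequenced 51-bp single-end reads, analysed mainly with the Tuxedo tools. The build given in the submitters' processing notes is mm9; the counting program and use of strand are not given in the sources used here. The authors deposited read counts per Ensembl gene and library, not normalized. Deposited RPKM values imply lengths of 0.548 to 2.78 times the merged exons for the 9 genes and were used only for that check. The columns of the authors' own comparison (fold changes, p-values) were not used.

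Symbols and positions came from GENCODE M21 (GRCm38), matched by identifier for 32642 of 37681 genes (86.6%), and promoters from RefSeq (GRCm38.p6). Counts of the 2 kidneys of a mouse were summed, filtered with filterByExpr, scaled with TMM (factors 0.944 to 1.07) and tested with glmQLFTest of edgeR 4.0.16 under R 4.3.3 (limma 3.58.1 for single kidneys). The 19399 p-values were adjusted by the Benjamini-Hochberg method. The coefficient of biological variation was 0.114. Labels do not say whether kidneys were processed apart, so the mouse was the unit. Single values were tested by exact permutation, 2-sided. Counting floors (3 reads) and intervals cover these libraries only. The procedure was tested on simulated data.

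Named genes were the 9, all pathway genes past the threshold of the study, the 10 others with the largest absolute log2 fold change among those with an adjusted p under 0.05, Fgf23, Pth, Klb, Pdzk1, Cyp27b1 and Cyp24a1, the 3 most like genes of each of the 9 and the most abundant gene of each marker list; other genes were chosen after their values were seen. The 9 genes, the lists and the tests were chosen with earlier results of these data known. Alternatives were DESeq2 1.42.0, other scalings, no filter, single kidneys, a block of mouse pairs, leaving out each mouse and other limits on p and fold. Python 3.11.15 (numpy 2.4.6, scipy 1.17.1, pandas 2.3.3, matplotlib 3.10.9) made the tables and plots.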

Additional observations from a re-analysis of the deposited data

Results flagged for a closer look

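In the TG- libraries the lowest value of Slc34a3, 57.5 CPM in kidney 2 of mouse 43-26, stood apart from the other 5 libraries (65.3 to 69.9 CPM), with a gap of 0.626 of the whole range of the 6, just past the critical value of Dixon's test. It was the only 1 of 18 groups of 6 libraries to do so, and for independent values chance gives about 1 in 20. The 6 libraries are the 2 kidneys of each of 3 mice and are not independent, so that rate holds only roughly.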

How the results depend on the processing

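Slc34a1, Slc20a1, Slc9a3r1 and Pth1r kept their direction and an adjusted p under 0.05 in all 15 alternative settings (log2 fold changes of -0.80 to -0.64, 0.91 to 1.07, -0.42 to -0.24 and -0.45 to -0.28). For Kl the adjusted p missed 0.05 in kidney 2 alone (-0.17, adjusted p = 0.0713 in edgeR's test), with library size alone (-0.090) and without any mouse other than 43-49 (-0.22 without 43-29, -0.21 without 43-75, -0.23 without 43-26, -0.17 without 43-50 and -0.24 without 43-76). Slc34a3 passed with DESeq2 (-0.26), in kidney 1 alone (-0.35) and with pairs of mice as a block (-0.25, adjusted p = 0.0196 in edgeR's test). Slc20a2 passed with library size alone (0.26), and Vdr with the block of pairs (-0.17, adjusted p = 0.0498 in edgeR's test). Fgfr1 turned sign with library size alone (0.089), without TG+ mouse 43-29 (0.0073) and without TG- mouse 43-76 (0.025; range over single mice -0.14 to 0.025). The cause of these shifts was not tested. The pairs came from the name of the deposited table, which does not say whether they are litters. The deviations of paired mice from their group means correlated at 0.309, 0.363 and -0.0192 over 16180 genes. Of the 3 TG- mice, 2 correlated best with their own pair, so the pairing was not established. The block changed no other call of the 9 genes.

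Over all genes the 732 higher and 41 lower became 1534 and 824 at an adjusted p under 0.01 without a fold limit and 2982 and 2105 at 0.05; library size alone gave 22 lower, and leaving out a mouse 469 (without 43-76) to 633 higher and 29 to 50 lower. Of the 9 genes, past the threshold of the study, 1 was higher with library size alone, 1 without 43-50 (0 to 1 over single mice, Slc20a1), and 1 higher with 3 or 4 lower without the fold limit; library size alone gave 2 higher at 0.05. Of all pathway genes, 3 higher and 0 lower past the threshold became 6 and 9 without the fold limit at 0.01 and 9 and 13 at 0.05, and library size alone gave 15 higher at 0.05. With the median of the markers in place of their sum, differences from the proximal tubule markers were -0.22 for Slc34a1, 1.49 for Slc20a1, 0.18 for Slc9a3r1, 0.33 for Kl and 0.15 for Pth1r. From the distal markers they were -0.52 for Slc34a1, -0.018 for Slc34a3, 1.19 for Slc20a1, 0.026 for Kl, 0.20 for Fgfr1, -0.16 for Pth1r and 0.064 for Vdr. Depth was ample for the 9 genes, and 3 mice per group limit the precision.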
